A study of Mus musculus with 237 samples.

Results

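The 10 transcripts described here belong to the signalling pathway of the bone morphogenetic proteins (BMPs). They are the ligand genes Bmp2, Bmp4 and Bmp7, the receptor genes Bmpr1a and Bmpr2, the response genes Id1, Id2 and Id3, and the inhibitory Smad genes Smad6 and Smad7. They were taken by gene symbol alone, whatever their values, and are 10 of the 36186 gene entries of the deposited table. Each symbol stood on 1 entry.

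The study set nephron progenitors beside the stroma around them in the embryonic mouse kidney, and looked at what loss of the transcription factor Pax2 does to that lineage boundary. Kidneys were digested with proteases, wanted cells were enriched by sorting, and single cells were caught on the Fluidigm C1, a microfluidic device, for RNA sequencing. All mice were of mixed strain, and the cells used here fall into 5 groups by label, with ages in days of embryonic development. At E18.5 these are 74 wild-type cells labelled as cap mesenchyme or derived from it, 71 wild-type interstitial cells, whose titles name FoxD1 GCE with no account of that allele, and 44 cap mesenchyme cells labelled Pax2 mutant. At E13.5 they are 18 wild-type cap cells, with the same source name as the older ones but for age, and 29 Pax2 mutant cap cells. Where 5 values stand in a row below, they follow this order. Titles call the older cap cells CTRL and the younger ones WT. Those of E18.5 cap and E13.5 mutant cells add a number whose meaning is not stated. The labels state neither the Pax2 allele, nor what drives any recombinase, nor what marker the sort used. They name no embryo, so cells of a group may share an animal. Each group therefore counts as 1 sample, no test between groups was made, and every SD below is a spread between cells.

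BMP ligands bind a complex of type I receptors, such as the one Bmpr1a encodes, and type II receptors, such as the one Bmpr2 encodes. The type I receptor phosphorylates Smad1, Smad5 and Smad9, which enter the nucleus with Smad4 and switch on targets that include the Id genes and, as feedback, Smad6 and Smad7. In the developing kidney Bmp7 is known for its part in keeping and priming cap mesenchyme progenitors, and Bmp4, made around the ureteric bud, for restraining budding and for shaping the ureteral mesenchyme.

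Id2 and Id3 had the highest mean log2(RPKM + 1), a level per transcript length, of the 10 in every group, so the 250 bases before their annotated starts are shown, searched for letters that Smad proteins and general promoter factors are known to bind. RefSeq (GRCm38.p6) holds this stretch for 6 of the 10 genes. The 5′ to 3′ sequences below follow the sense strand of each gene. In Id2 (chr12:25096093-25096342, minus strand), capitals mark the GC-rich Smad box GGCGCC and the CCAAT box, also where it reads ATTGG on the other strand. In Id3 (chr4:136143572-136143821, plus strand), capitals mark the CAGAC box, also where it reads GTCTG on the other strand.
Id2: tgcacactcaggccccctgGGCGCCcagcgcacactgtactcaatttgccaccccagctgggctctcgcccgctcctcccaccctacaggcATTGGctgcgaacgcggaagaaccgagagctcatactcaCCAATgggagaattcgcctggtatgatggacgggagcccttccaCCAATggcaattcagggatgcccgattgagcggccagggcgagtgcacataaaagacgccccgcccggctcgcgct
Id3: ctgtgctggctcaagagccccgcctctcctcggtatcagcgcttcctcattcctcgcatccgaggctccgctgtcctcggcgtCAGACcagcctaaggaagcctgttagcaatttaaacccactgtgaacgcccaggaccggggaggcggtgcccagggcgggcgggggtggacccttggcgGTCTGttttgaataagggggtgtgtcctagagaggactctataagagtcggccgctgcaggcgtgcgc
Searched on both strands, GGCGCC stood in Id2 from 231 to 226 bases before the start, and 9.59% of 32851 mouse promoters of the same length held it. It was also found in the Bmpr1a stretch (198 to 193 bases before the start) and in that of Bmpr2 (105 to 100). CCAAT or ATTGG stood at 3 places in Id2 (159 to 155, 120 to 116 and 76 to 72 bases before the start) against a share of 33.8% of all promoters with at least 1. Id3 held CAGAC or GTCTG at 2 places (167 to 163 and 68 to 64), and 42.2% of promoters held either string. The palindromic Smad element GTCTAGAC, present in 0.167% of promoters, stood in none of the 6. The searched strings do not overlap each other in these stretches, and a match is a description of letters, not of binding.

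The deposited values are RPKM, reads divided by a transcript's length and by all mapped reads, and no read counts are given, so the depth of each cell is unknown. Genes at 1 RPKM or more stand in for it. Their median was 5210.5, 5178, 3643, 5566 and 4560 in the 5 groups. Pax2 reached 1 RPKM in 56 of 74, 18 of 71, 0 of 44, 15 of 18 and 17 of 29 cells. The E18.5 mutant zero allows a share of up to 6.82%, and most E13.5 cells labelled mutant held the transcript. Such a limit for a zero is 3 divided by the number of cells, an approximation to the exact interval used for other shares below. Six2, the defining marker of cap progenitors, reached 1 RPKM in 62, 19, 1, 14 and 9 cells, and Cited1, another, was listed at 0 in all 44 E18.5 mutant cells. At least 2 of 10 stromal markers were present in 36 of 74, 69 of 71, 44 of 44, 7 of 18 and 25 of 29 cells. The E18.5 mutant cells thus lacked the defining progenitor markers that their label calls for and carried stromal ones. Cells with Xist and no Y-linked transcript made up 67, 0, 42, 0 and 27 cells of the groups, and those with Y-linked transcripts alone 0, 70, 0, 17 and 0. Cells with both kinds numbered 6, 1, 2, 0 and 2. Apart from these, interstitium and E13.5 cap cells read as male and the other 3 groups as female. The titles also give a pool number: 2 for E18.5 cap, 2 or 3 for interstitium, 4 for E18.5 mutant and 3 for both E13.5 groups. They also carry what reads as a date, of a step not stated, which is the same within each group and differs between all 5. That date cannot be told apart from the group in any comparison, nor can sex or pool where they differ. Of single cells that stand apart, 1 E13.5 cap cell had an endothelial marker score of 3.83 (mean log2 over 8 markers), 1 E13.5 mutant cell a ureteric score of 5.63 and 1 E18.5 mutant cell an immune score of 6.25. The entry LOC100503946 reached 20000 RPKM in 20, 9, 4, 1 and 8 cells, and results that rest on these cells are also given without them.

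Among the ligands, Bmp7 followed the wild-type cap at both ages, Bmp4 was most frequent at E13.5, and Bmp2 was nearly absent. A cell counts as holding a transcript from 1 RPKM upward. The range after a share is its exact 95% Clopper-Pearson interval, for counting error only. For Bmp7 (gene ID 12162, mm10 chromosome 2, 172869687 to 172940293), 39 of 74 E18.5 cap cells held it (52.7%, 40.7 to 64.4) and 9 of 18 E13.5 cap cells (50%, 26 to 74). The share was 10 of 71 in interstitium (14.1%, 6.97 to 24.4), 7 of 44 in E18.5 mutant (15.9%, 6.64 to 30.1) and 4 of 29 in E13.5 mutant cells (13.8%, 3.89 to 31.7). The intervals of the E18.5 cap lie above those of the other E18.5 groups, while the E13.5 intervals overlap. Counting any value above 0, the share was 62.2% in E18.5 cap, 18.3% in interstitium and 40.9% in E18.5 mutant cells, so that with this lower line the mutant no longer lay near interstitium. Where present at 1 RPKM, Bmp7 was also lower in the E18.5 mutant, with a median of 8.17 RPKM in holding cells against 17.1 in E18.5 cap and 16.4 in interstitium. The holding cells of E13.5 had medians of 54.3 RPKM in the cap and 59.1 in the mutant.

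Values of Bmp7 ran from 0 through a median of 1.36 to 128 RPKM in E18.5 cap cells and from 0 through 5.27 to 116 in E13.5 cap cells. In each of the other 3 groups both the lowest and the median value were 0, and the highest was 72.4 RPKM in interstitium, 22.8 in E18.5 mutant and 157 in E13.5 mutant cells. Cells above the cap medians thus existed in every group. The highest E18.5 mutant value lay above the upper quartile of E18.5 cap cells, 17.4 RPKM, but far below their highest value. Mean log2(RPKM + 1) was 2.14 ± 2.36 (SD) in E18.5 cap, 0.55 ± 1.46 in interstitium and 0.61 ± 1.25 in E18.5 mutant cells. It was 2.77 ± 2.79 in E13.5 cap and 0.82 ± 2.02 in E13.5 mutant cells. The gap between the wild-type cap groups and the rest is smaller than the spread between cells.

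Bmp7 was also counted by the presence of Six2 in the wild-type E18.5 groups. Of E18.5 cap cells with Six2 at 1 RPKM or more, 35 of 62 held Bmp7 (56.5%, 43.3 to 69), against 4 of 12 without it (33.3%, 9.92 to 65.1), and these intervals overlap. The 12 cap cells without Six2 were also lower in Id1 (25%, 5.49 to 57.2, against 59.7%, 46.4 to 71.9). Id2 was likewise lower (66.7%, 34.9 to 90.1, against 95.2%, 86.5 to 99), and both pairs of intervals overlap. Those of Id3 do not (58.3%, 27.7 to 84.8, against 95.2%, 86.5 to 99). In E18.5 cap, Id1, Id2 and Id3 also moved with genes per cell (r = 0.38, 0.52 and 0.44), whose part here was not tested. In interstitium 7 of 19 cells with Six2 held Bmp7 (36.8%, 16.3 to 61.6) and 3 of 52 without it (5.77%, 1.21 to 15.9). Most of the Bmp7 of this group thus lay in its Six2-holding cells. At E13.5 all 4 mutant cells with Bmp7 were among the 17 that still had Pax2 at 1 RPKM or more, and none was among the 12 without it, which allows a share of up to 25%.

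Bmp4 (gene ID 12159, chromosome 14, 46383520 to 46390599) was held by 14 of 74 E18.5 cap (18.9%, 10.7 to 29.7), 12 of 71 interstitium (16.9%, 9.05 to 27.7) and 7 of 44 E18.5 mutant cells (15.9%, 6.64 to 30.1). These shares lie within each other's intervals. At E13.5 it was held by 8 of 18 cap (44.4%, 21.5 to 69.2) and 16 of 29 mutant cells (55.2%, 35.7 to 73.6). Its median was 0 RPKM in each E18.5 group, 0.256 in E13.5 cap and 2.05 in E13.5 mutant cells, and the lowest value was 0 in all 5. The highest value was 205, 152, 313, 152 and 817 RPKM in the 5 groups. Mean log2(RPKM + 1) was 0.72 ± 1.71, 0.83 ± 1.97 and 0.74 ± 1.82 in the 3 E18.5 groups, 1.81 ± 2.25 in E13.5 cap and 2.91 ± 3.45 in E13.5 mutant cells.

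The E13.5 mutant mean rested on a minority of cells with very high Bmp4. In that group 7 of 29 cells (24.1%) were at 100 RPKM or more, between 160 and 817, while E18.5 cap, E18.5 mutant and E13.5 cap had 1 such cell each and interstitium had 2. None of the 7 held Bmp7, which allows a share of up to 42.9%, 1 held Bmpr1a and 1 held Id1, whereas all 7 held Id2 and Id3. At least 2 stromal markers were present in 6 of these 7 cells, and 2 held Pax2. The 7 cells had between 1889 and 4710 genes at 1 RPKM or more. Of all 29 cells of the group, 25 had at least 2 stromal markers, 17 held Pax2, 26 Id2 and 25 Id3. Bmpr1a was held by 10 of the 29, Id1 by 14 and Bmp7 by 4. The 7 cells were thus close to the whole group in stromal markers, Id2 and Id3. The part of these measures in the high Bmp4 values was not tested. The 100 RPKM line was drawn after the values were seen. Both Bmp4 and Bmp7 were held by 6 of 74, 2 of 71, 3 of 44, 5 of 18 and 1 of 29 cells. Of the cells with Bmp4, Bmp7 was held by 6 of 14, 2 of 12, 3 of 7, 5 of 8 and 1 of 16.

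Bmp2 (gene ID 12156, chromosome 2, 133553199 to 133562885), a ligand close to Bmp4 in sequence, was held by 3, 1, 2, 2 and 0 cells of the 5 groups. It was listed at 0 in all 29 E13.5 mutant cells, which allows a share of up to 10.3% (11.9% by the exact interval). Its highest value anywhere was 14.6 RPKM, in an interstitium cell. Any of the 3 ligands was held by 49 of 74 E18.5 cap (66.2%, 54.3 to 76.8), 21 of 71 interstitium (29.6%, 19.3 to 41.6) and 12 of 44 E18.5 mutant cells (27.3%, 15 to 42.8). At E13.5 the counts were 13 of 18 cap (72.2%, 46.5 to 90.3) and 19 of 29 mutant cells (65.5%, 45.7 to 82.1). Mutant cells at E13.5 thus held a ligand about as often as cap cells of that age, with Bmp4 in 16 and Bmp7 in 4 of the 29 cells.

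**Figure D1:**
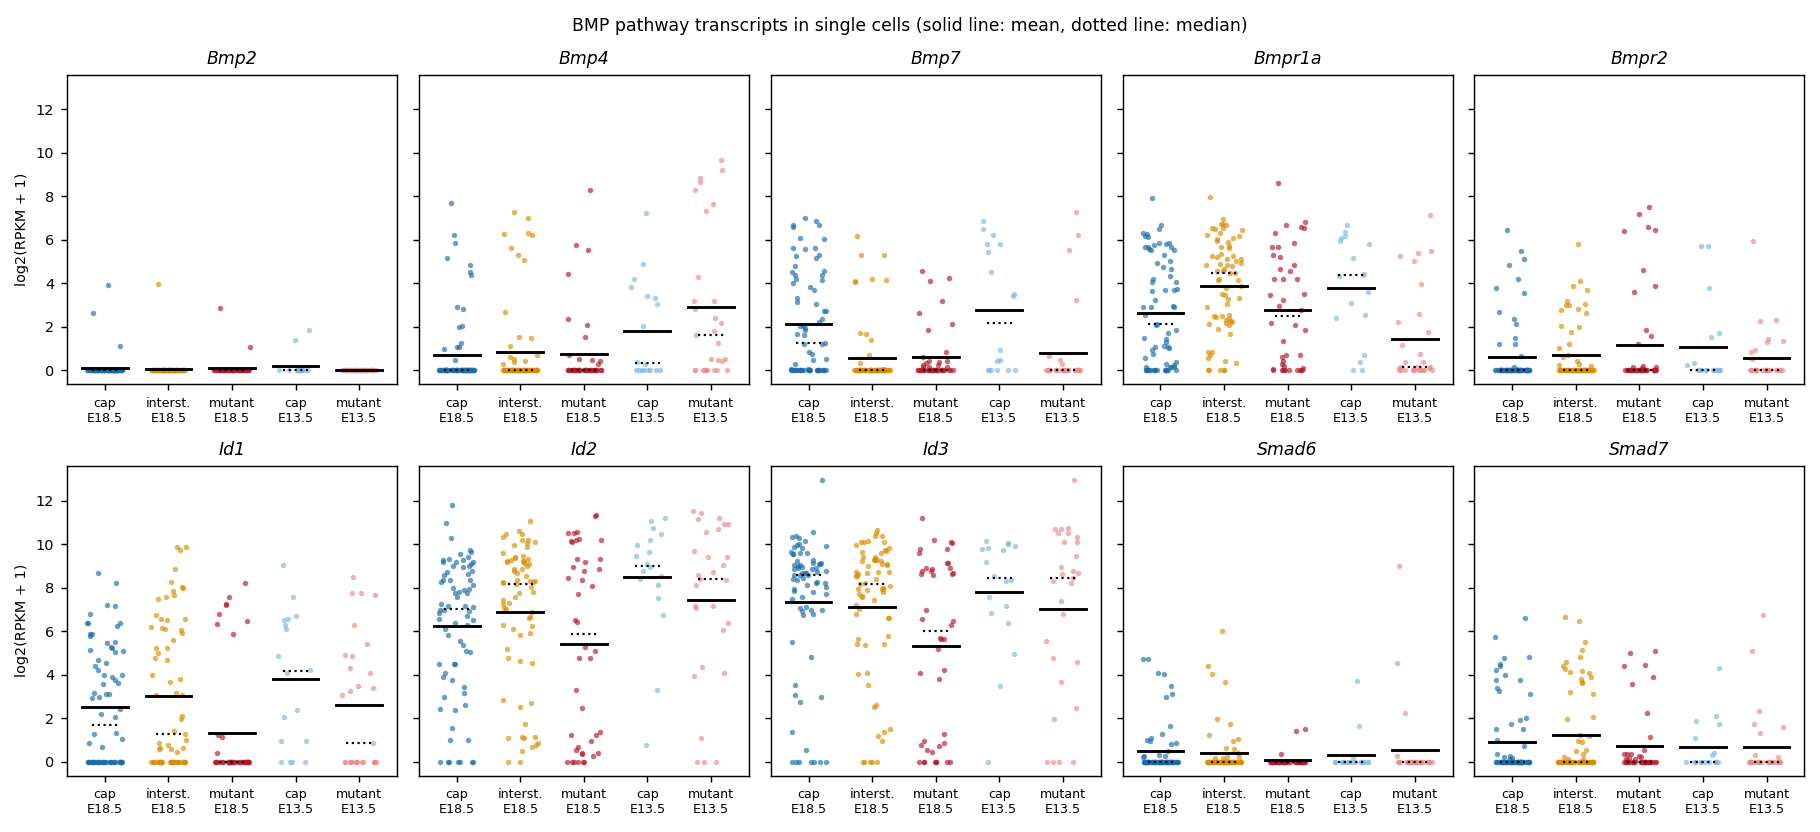
Each point is 1 cell, with log2(RPKM + 1) on the vertical axis and the 5 groups side by side (interst., interstitium). Solid lines are means and dotted lines medians. Id2 and Id3 are high in most cells, and Bmp7 is high mainly in the cap groups. In the E13.5 mutant 7 cells have Bmp4 between 160 and 817 RPKM, and no other group has more than 2 cells at 100 RPKM or more.

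**Figure D2:**
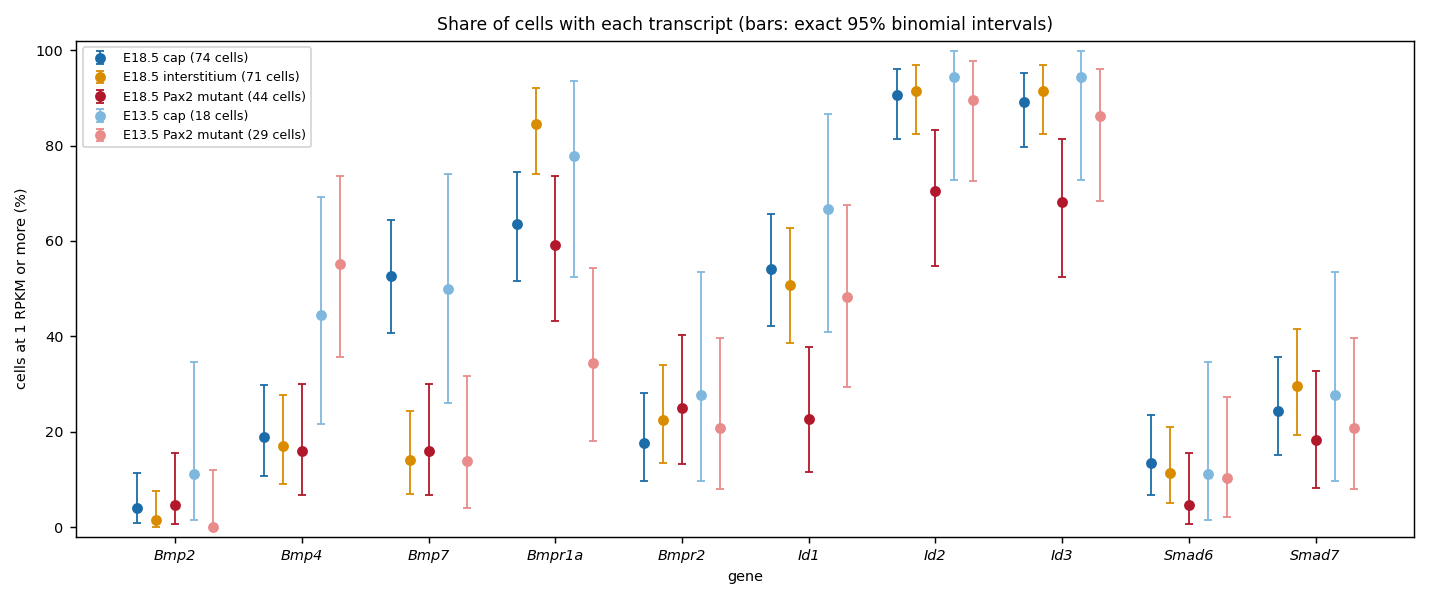
Points give the percentage of cells at 1 RPKM or more and bars the exact 95% binomial interval, which covers counting error only. Bmp7 lies at 52.7% and 50% in the cap groups and between 13.8% and 15.9% in the other groups, and the E18.5 mutant has the lowest Id1, Id2 and Id3 shares.

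Of the receptors, Bmpr1a was common and Bmpr2 sparse. Bmpr1a (gene ID 12166, chromosome 14, 34411068 to 34502546), the type I receptor BMPR1A or ALK3, was held by 60 of 71 interstitium cells (84.5%, 74 to 92) and 14 of 18 E13.5 cap cells (77.8%, 52.4 to 93.6). In E18.5 cap it was held by 47 of 74 (63.5%, 51.5 to 74.4), in E18.5 mutant by 26 of 44 (59.1%, 43.2 to 73.7) and in E13.5 mutant by 10 of 29 cells (34.5%, 17.9 to 54.3). The interval of the E13.5 mutant lies below that of interstitium and overlaps that of E13.5 cap only at its edge. Median values were 3.34, 21.3, 4.71, 19.7 and 0.122 RPKM in the 5 groups. Each group had cells at 0, and the highest values were 243, 250, 390, 101 and 139 RPKM in the same order. Mean log2(RPKM + 1) was highest in interstitium at 3.90 ± 2.14, then 3.79 ± 2.32 in E13.5 cap, 2.79 ± 2.60 in E18.5 mutant, 2.65 ± 2.43 in E18.5 cap and 1.46 ± 2.19 in E13.5 mutant cells. The distance from the first to the last, 2.44 log2 units, exceeded the larger SD of 2.19. For none of the other 9 genes did the highest and lowest group differ by more than the larger SD, and no pair of neighbours in the order of any gene did (0 of 40 pairs).

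Interstitium cells came from 2 pools. Bmpr1a was held by 21 of 22 cells in pool 2 and by 39 of 49 in pool 3. Bmp4 was held by 1 of 22 (4.55%) and 11 of 49 (22.4%), so its pool 2 share rests on 1 cell. Most of the Bmp4 of this group thus lay in pool 3, which also had most of its cells. Bmp7 was held by 3 of 22 cells in pool 2 and 7 of 49 in pool 3, close to equal shares of 13.6% and 14.3%.

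Bmpr2 (gene ID 12168, chromosome 1, 59764637 to 59870859), the type II receptor that phosphorylates type I receptors, had a median of 0 RPKM in all 5 groups. It was held by 13 of 74, 16 of 71, 11 of 44, 5 of 18 and 6 of 29 cells, or between 17.6% and 27.8%. Its mean was 0.61 ± 1.48, 0.68 ± 1.32, 1.17 ± 2.32, 1.06 ± 1.96 and 0.58 ± 1.24 log2 units in that order. The highest single values were 182 RPKM in an E18.5 mutant cell and 85.3 in an E18.5 cap cell. Cells with both receptor transcripts were few: 9 of 74, 15 of 71, 6 of 44, 5 of 18 and 1 of 29. Cells with neither made up 23 of 74 (31.1%, 20.8 to 42.9), 10 of 71 (14.1%, 6.97 to 24.4), 13 of 44 (29.5%, 16.8 to 45.2), 4 of 18 (22.2%, 6.41 to 47.6) and 14 of 29 (48.3%, 29.4 to 67.5). With the depth unknown, an absent transcript is not shown to be absent from the cell.

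The Id genes encode proteins that bind E proteins and keep them from DNA. Id2 (gene ID 15902, chromosome 12, 25093799 to 25096092) and Id3 (gene ID 15903, chromosome 4, 136143822 to 136145392) were present in nearly all wild-type cells and in fewer E18.5 mutant cells. Id3 was held by 66 of 74 E18.5 cap (89.2%, 79.8 to 95.2), 65 of 71 interstitium (91.5%, 82.5 to 96.8), 17 of 18 E13.5 cap (94.4%, 72.7 to 99.9) and 25 of 29 E13.5 mutant cells (86.2%, 68.3 to 96.1). In the E18.5 mutant it was held by 30 of 44 cells (68.2%, 52.4 to 81.4). Counting any value above 0, the E18.5 mutant share was 81.8% for Id3 and 86.4% for Id2, against 90.5% for both in E18.5 cap. With this lower line the gap to the cap was thus smaller for both genes. The lowest Id3 value was 0 in every group, and its medians were 385, 290, 64.1, 346 and 352 RPKM in the 5 groups. The highest values were 7941, 1583, 2326, 1124 and 7890 RPKM. Mean log2(RPKM + 1) was 7.34 ± 3.19, 7.13 ± 3.11, 5.31 ± 3.98, 7.78 ± 2.72 and 7.01 ± 3.88 in that order.

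Among cells that held Id3 the E18.5 mutant stood closer to the other groups. The median over holding cells was 404 RPKM there, against 409 in E18.5 cap, 365 in interstitium, 369 in E13.5 cap and 406 in E13.5 mutant cells. The mean log2(RPKM + 1) over holding cells was lowest in the E18.5 mutant, at 7.65 ± 2.36, against 8.23 ± 2.02 in E18.5 cap, a smaller gap than over all cells. The same group had a median of 3643 genes at 1 RPKM or more, the lowest of the 5. The part of this gene number in the share of cells with Id3 was not tested beyond the matched comparison given below.

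Id2 had medians of 131, 289, 61.8, 517 and 332 RPKM in the same order of groups, with maxima of 3594, 2157, 2596, 2354 and 2953. It was held by 67 of 74 (90.5%, 81.5 to 96.1), 65 of 71 (91.5%, 82.5 to 96.8), 31 of 44 (70.5%, 54.8 to 83.2), 17 of 18 (94.4%, 72.7 to 99.9) and 26 of 29 cells (89.7%, 72.6 to 97.8). The lowest value was 0 in every group but E13.5 cap, where it was 0.676 RPKM, in the cell with the endothelial markers. Among holding cells the median was lowest in E18.5 cap at 149 RPKM, and was 302 in interstitium, 437 in E18.5 mutant, 546 in E13.5 cap and 405 in E13.5 mutant cells. Id2 therefore differs from Id3, whose median in holding cells lay between 365 and 409 RPKM in all groups. Its mean log2(RPKM + 1) was highest in E13.5 cap at 8.50 ± 2.68, then 7.43 ± 3.63 in E13.5 mutant, 6.89 ± 3.21 in interstitium, 6.23 ± 3.14 in E18.5 cap and 5.41 ± 4.27 in E18.5 mutant cells.

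Id1 (gene ID 15901, chromosome 2, 152736274 to 152737410) was less frequent than its relatives. It was held by 40 of 74 E18.5 cap (54.1%, 42.1 to 65.7), 36 of 71 interstitium (50.7%, 38.6 to 62.8), 12 of 18 E13.5 cap (66.7%, 41 to 86.7) and 14 of 29 E13.5 mutant cells (48.3%, 29.4 to 67.5), but by 10 of 44 E18.5 mutant cells (22.7%, 11.5 to 37.8). The interval of the E18.5 mutant lies below those of the other E18.5 groups. Medians were 2.30, 1.42, 0, 16.8 and 0.795 RPKM, each group had cells at 0, and the highest values were 410, 946, 296, 528 and 364 RPKM. Means were 2.51 ± 2.66, 3.0 ± 3.29, 1.33 ± 2.71, 3.79 ± 3.04 and 2.60 ± 2.99 log2 units. In the cells that held it, the median was higher in the E18.5 mutant, at 98.2 RPKM, than in E18.5 cap at 23.3 or interstitium at 66.1.

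All 3 Id transcripts were held together by 35 of 74 (47.3%, 35.6 to 59.3), 35 of 71 (49.3%, 37.2 to 61.4), 8 of 44 (18.2%, 8.19 to 32.7), 11 of 18 (61.1%, 35.7 to 82.7) and 14 of 29 cells (48.3%, 29.4 to 67.5). Cells without any of the 3 numbered 1, 1, 5, 0 and 2, and the 0 allows a share of up to 16.7%. Most cells of each group therefore carried at least 1 Id transcript, and the share without any was highest in the E18.5 mutant (11.4%, 3.79 to 24.6). In every group cells without any Id transcript were fewer than cells with neither receptor, so some of the latter held an Id transcript.

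The inhibitory Smads, which block the receptors and the receptor-activated Smads, were sparse in all groups. Smad7 (gene ID 17131, chromosome 18, 75367365 to 75395934), which also blocks the TGF-beta branch, was held by 18 of 74 (24.3%), 21 of 71 (29.6%), 8 of 44 (18.2%), 5 of 18 (27.8%) and 6 of 29 cells (20.7%). Its median was 0 RPKM in every group, its highest value was 107 RPKM in an E13.5 mutant cell, and its means lay between 0.65 ± 1.17 and 1.21 ± 1.93 log2 units. Smad6 (gene ID 17130, chromosome 9, 63953076 to 64022059), the more BMP-selective of the pair, was held by 10, 8, 2, 2 and 3 cells of the groups. Its means lay between 0.07 ± 0.31 in E18.5 mutant and 0.55 ± 1.87 in E13.5 mutant cells. The last mean was set by 1 cell at 513 RPKM, and no other cell of the series passed 62.6. That cell also had Bmp4 at 592 RPKM, LOC100503946 at 101345, and neither receptor nor Bmp7 nor Id1 above 0. Smad6 or Smad7 was held by 24, 26, 10, 7 and 8 cells, or between 22.7% and 38.9% of a group. The counting intervals of the 5 groups overlapped for both genes.

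Differences between groups are given as the difference of mean log2(RPKM + 1), and a gene is called where this reaches 1 log2 unit. The rule was applied to all genes that at least 10% of cells in 1 of the compared groups held. Of interstitium minus cap at E18.5, 5.94% of 11219 genes were called higher and 2.7% lower, against 1 and 1 of the 10 here (9 passed the filter, Bmp2 did not). Bmpr1a was higher by 1.24 and Bmp7 lower, at -1.59. Id1 (0.50), Id2 (0.66), Id3 (-0.22), Bmp4 (0.11), Bmpr2 (0.07), Smad6 (-0.10) and Smad7 (0.29) lay within 1 unit. Among cells with 3000 to 5000 genes (35 interstitium and 26 cap cells) Id2 passed it at 2.08, Bmpr1a was at 2.18 and Bmp7 at -1.60. The median of the 10 was 0.09, that of all genes tested 0.01. Within pool 2, whose cap and interstitium cells still differ in title date, Bmp7 was at -1.89 and Bmpr1a at 2.15. The Bmpr1a call was lost without cells high in LOC100503946 (0.52) and between Six2-holding cap and Six2-lacking interstitium cells (0.80), a contrast in which Bmp7 was at -2.16. Id3 passed 1 unit in these same alternatives, at -1.19 within pool 2, -1.03 without the cells high in LOC100503946 and -1.10 in the Six2 contrast.

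Between E18.5 mutant and cap cells, 3 of the 10 were called lower and 0 higher, where 23.2% of 11100 genes were called lower and 4.51% higher. Id3 was at -2.03, Bmp7 at -1.54 and Id1 at -1.18, followed by Id2 at -0.82, and Bmpr2 had the largest positive difference at 0.56. Bmp4 (0.02), Bmpr1a (0.13), Smad6 (-0.42) and Smad7 (-0.18) lay nearer 0, and Bmp2 did not pass the filter. The median of the 10 was -0.30, above the -0.40 of all genes tested. Among cells matched at 3000 to 5000 genes (33 mutant and 26 cap cells), Bmp7 kept a difference of -1.13, while Id3 was at -0.36, Id1 at -0.48 and Id2 turned to 2.11. In that subset Bmpr1a was at 1.16 and Bmpr2 at 1.11, and the median of all genes was -0.04. The mutant cells also differed in cycling genes, with a G2 and M phase score of 0.53 against 3.54 in the cap (mean log2 over 8 markers). Its part in the Id differences was not tested by a model; among cells with fewer than 2 of these markers (39 and 10 cells) Id3 was at -2.28, Bmp7 at -1.59, Id1 at -0.78 and Id2 at -0.05. Pool and genotype cannot be told apart here.

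Set against interstitium, E18.5 mutant cells had 4 of the 10 called lower and 0 higher, against 23.4% and 2.05% of 10903 genes. Id3 was at -1.82, Id1 at -1.68, Id2 at -1.48 and Bmpr1a at -1.11, while Bmp7, low in both groups, was at 0.06 and Bmp4 at -0.09. Bmpr2 (0.49), Smad6 (-0.31) and Smad7 (-0.47) were not called. The median of the 10 was -0.39, and that of all genes -0.41. At 3000 to 5000 genes (33 and 35 cells) Bmpr1a was at -1.01, Id3 at -0.79, Id1 at -0.67 and Id2 at 0.028, so Bmpr1a alone stayed past 1 unit. The Bmpr1a call was lost without cells high in LOC100503946 (-0.94) and against Six2-lacking interstitium cells (-0.72), and against pool 2 interstitium cells Id2 was at -0.73 and Id3 at -0.84.

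In the E13.5 comparison, whose groups share a pool number but not a title date, 4 of the 10 were called lower and 1 higher in mutant cells, against 27.7% and 1.43% of 11449 genes. Bmpr1a was at -2.33, Bmp7 at -1.95, Id1 at -1.19 and Id2 at -1.07, and Bmp4 was higher by 1.10. Id3 (-0.78), Bmpr2 (-0.48), Smad6 (0.25), Bmp2 (-0.18) and Smad7 (0.01) were not called. The median of the 10 was -0.63 against -0.45 for all genes. Without the 8 mutant cells and 1 cap cell high in LOC100503946, Bmpr1a was at -2.67 and Bmp7 at -1.95, but Id1 was at -0.05, Id2 at 0.17 and Bmp4 at 0.78. The Bmp4 difference also dropped to 0.99 without the endothelial-marked cap cell, in which Bmp4 was 0. Only 2 E13.5 cap cells had 3000 to 5000 genes, too few for a matched comparison, and sex differed between the groups along with genotype.

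From E13.5 to E18.5 in cap cells, 4 of the 10 were called lower at the later age and 0 higher, against 14.5% and 2.53% of 11423 genes. Id2 was at -2.27, Id1 at -1.29, Bmpr1a at -1.13 and Bmp4 at -1.09, and Bmp7 was at -0.63. Id3 (-0.44), Bmpr2 (-0.45), Bmp2 (-0.08), Smad6 (0.18) and Smad7 (0.26) lay closer to 0, and the medians were -0.54 for the 10 and -0.21 for all genes. In mutant cells Bmp4 was at -2.17, Id2 at -2.02, Id3 at -1.70 and Id1 at -1.28 at the later age, and Bmpr1a was higher by 1.33. That makes 4 called lower and 1 higher, against 11.5% and 6.69% of 10872 genes, with medians of -0.34 and -0.16. Bmp7 (-0.21), Bmpr2 (0.59), Smad6 (-0.48) and Smad7 (0.06) were not called. Without cells high in LOC100503946 the cap difference was -0.70 for Bmpr1a and -0.79 for Id1. The ages also differ in pool, so age and pool cannot be told apart. Median-ratio scaling took the cap differences of Bmp4 (-0.97) and Bmpr1a (-0.95) under 1 unit. Id1, Id2 and Bmp4 were called lower at E18.5 in both genotypes, whereas Bmpr1a went in opposite directions. The difference between the genotypes was not tested. Comparisons that share a group are not independent of each other.

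**Figure D3:**
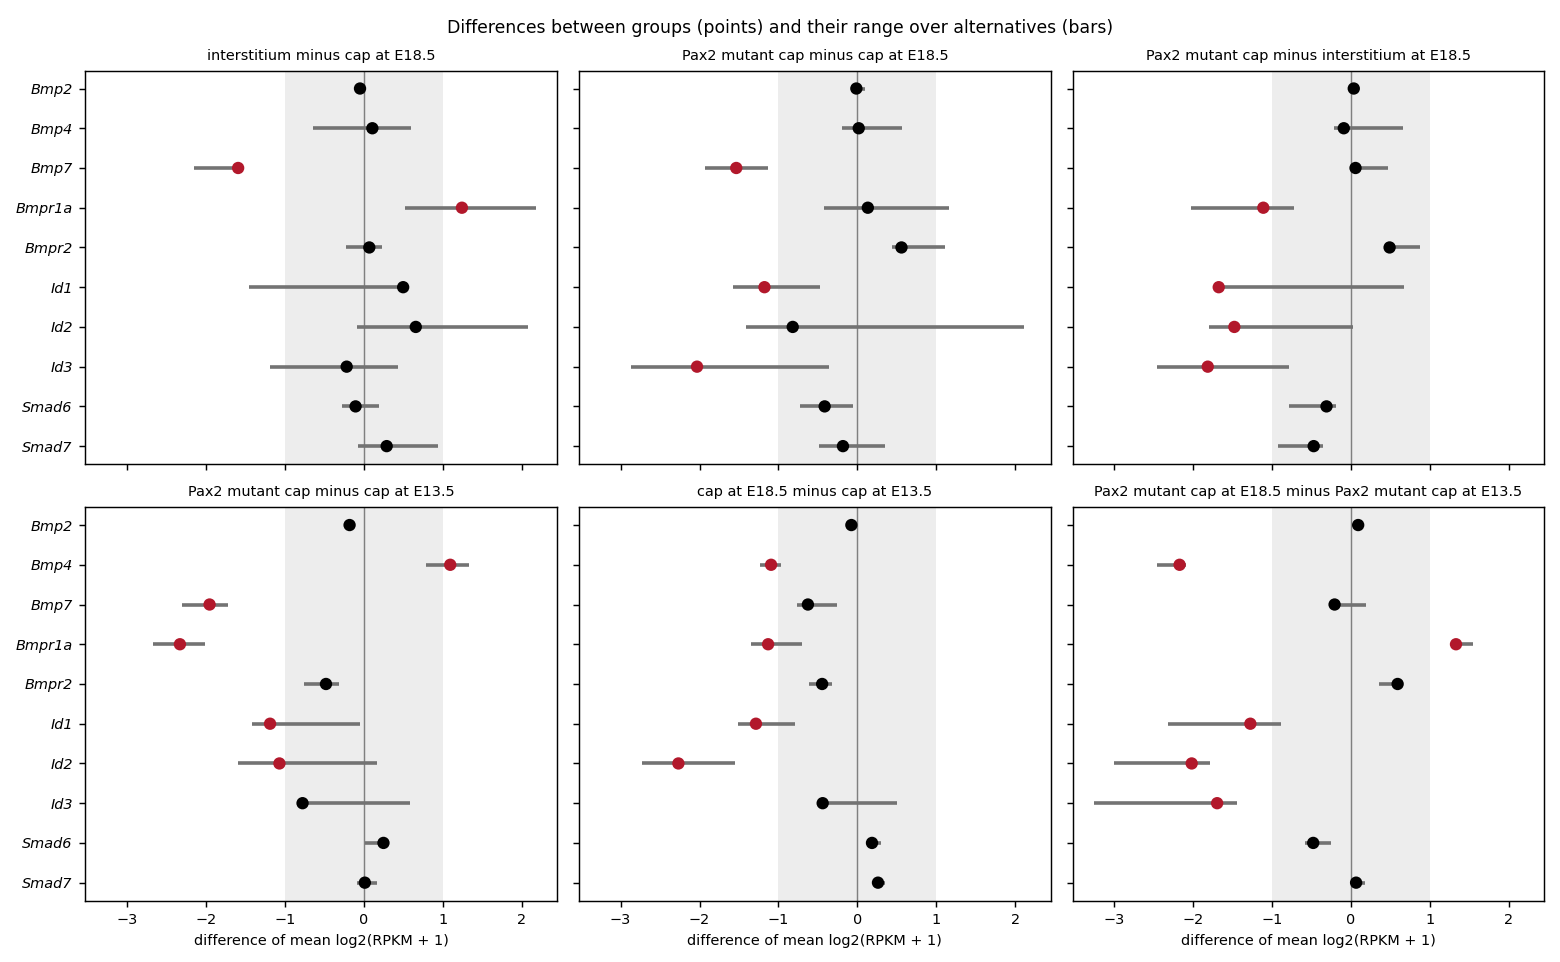
Points are differences of mean log2(RPKM + 1) for the 6 comparisons, red where they reach 1 log2 unit, and grey bars span the alternatives on this scale that left at least 5 cells in each group. The grey band marks differences under 1 unit. Bmp7 stays on the negative side of it in interstitium and both mutant groups against cap cells of the same age, while the Id2 bar of E18.5 mutant minus cap runs from -1.42 to 2.11.

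Across the cells of a group, the Id transcripts varied together, mostly more closely than they followed the ligands or receptors. These correlations describe cells that share a library, a pool and a range of gene numbers, and carry no test. Over 15 pairs of Id genes within groups, Pearson's r of log2(RPKM + 1) lay between 0.22 and 0.63, with a median of 0.41. Id2 and Id3 had 0.41 in 74 E18.5 cap, 0.51 in 71 interstitium, 0.49 in 44 E18.5 mutant, 0.26 in 18 E13.5 cap and 0.63 in 29 E13.5 mutant cells. Over 60 pairs of a ligand or receptor with an Id gene, Bmp2 left out for its few cells, r lay between -0.31 and 0.47, with a median of 0.03. The 2 ranges overlap: in E18.5 cap Bmpr1a and Id1 had r = 0.36, above Id1 and Id2 at 0.22. Bmp4 and Bmpr2 had a median of 0 RPKM in each E18.5 group, which limits any r with them. The number of genes per cell moved with the Id transcripts, with r for Id3 of 0.44, 0.27, 0.19, 0.17 and 0.60 in the 5 groups. After this number was taken into account (partial r), the Id pairs lay between 0.02 and 0.59 and the 60 other pairs between -0.34 and 0.41. By that measure Bmpr1a and Id1 stood at 0.23 in E18.5 cap, and Id1 and Id2 there at 0.02. Bmpr1a and Bmpr2 had r = 0.53 in the 18 E13.5 cap cells, where 5 cells held both. Bmp4 and Bmp7 had r = 0.23 in E18.5 mutant cells and r = -0.29 in E13.5 mutant cells.

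**Figure D4:**
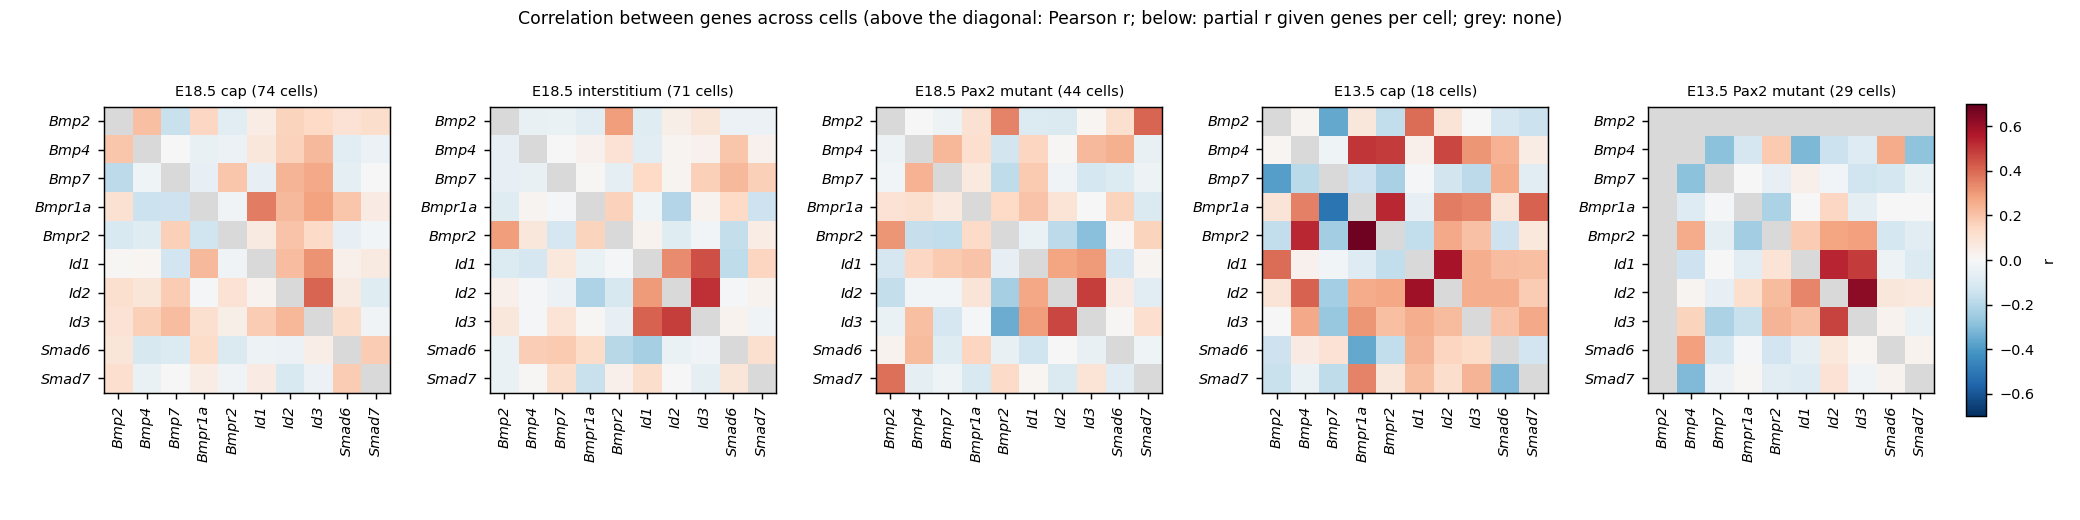
Each square is the correlation of a pair of genes over the cells of a group, Pearson's r above the diagonal and partial r given the number of genes per cell below it, with grey where there is none. The block of Id1, Id2 and Id3, next to the Smad6 and Smad7 corner, is positive in every group, from 0.22 to 0.63 above the diagonal.

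Over all labelled cells, with each group's mean removed, Id3 was the gene nearest to Id2 among 7620 genes held by 20% of cells, and Id2 the nearest to Id3 (r = 0.48). Next came Psmb4 (0.39) and Zfp422 (0.37) for Id2, and Ndufc1 (0.41) and Gnb1 (0.41) for Id3. For Id1 the nearest were Lsm5 (0.38), Id3 (0.37) and Id2 (0.32). The median r over all genes was 0.09 for Id2 and Id3 and 0.07 for Id1. For Bmp7 the nearest were Enc1 (0.29), Hsd11b2 (0.26) and Col2a1 (0.26), for Bmp4 Dgkd (0.30), Kbtbd3 (0.24) and Igfbp2 (0.24), for Bmpr1a Nf1 (0.32), Calu (0.29) and Ppp1cb (0.28), for Bmpr2 Btd (0.29), Pelp1 (0.28) and Heatr5a (0.26), and for Smad7 Daam1 (0.35), Ttc13 (0.24) and Usp29 (0.23). No other BMP gene stood among the nearest of a ligand, receptor or inhibitory Smad. Bmp2 and Smad6 were held by too few cells for this search.

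The rest of the pathway was followed in 7 lists with 76 genes. Of the 13 other BMP and growth differentiation factor ligands, 1 passed the filter in any comparison: Bmp3, a ligand that opposes other BMPs. It was held by 14 of 44 E18.5 mutant cells, 7 of 71 interstitium cells and no cell of the other 3 groups, with a mean of 1.99 log2 units in the mutant, higher than in cap by 1.98 and than in interstitium by 1.55. Bmp5, Bmp6 and Gdf11 appeared in few cells. At E18.5 Bmp5 and Bmp6 were each held by 4 interstitium, 1 mutant and 0 cap cells, and Gdf11 by 2, 0 and 3. Bmp8a, Bmp10 and Gdf2 were listed at 0 in all cells.

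Of 19 extracellular modulators, the follistatin-related Fstl1 was by far the most abundant, in 72 of 74 E18.5 cap cells and in every cell of the other 4 groups. Its mean was 7.11, 10.18, 10.05, 6.51 and 7.45 log2 units in the 5 groups. Twsg1, a chordin partner, had 2.29, 3.55, 4.10, 2.34 and 1.79, and Bmp1, a protease that cuts chordin, had 2.25, 2.35, 4.20, 1.07 and 1.54. Bmper, which binds BMPs outside the cell, went the other way, with 2.91 in E18.5 cap, 0.83 in interstitium and 0.66 in E18.5 mutant cells. It was held by 44 of 74, 12 of 71 and 6 of 44 of these. Chrd was held by 14 interstitium, 7 E18.5 mutant, 1 E18.5 cap and 1 E13.5 mutant cells, while Nog was held by 1 cell and Grem1 by 1 cell of the series. Bmp1 in E18.5 mutant cells was higher than in cap by 1.95, a difference that dropped to 0.71 at matched gene number, while Bmp3 (1.87), Fstl1 (3.24) and Twsg1 (2.43) stayed past 1 unit. Nbl1, a secreted BMP antagonist, had means of 0.77 in cap, 0.95 in interstitium and 0.14 in E18.5 mutant cells.

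Among 10 other receptors and co-receptors, Acvr2b, a type II receptor for activins and BMPs, was held by 34 of 74 E18.5 cap, 8 of 71 interstitium and 0 of 44 E18.5 mutant cells, the last allowing up to 6.82%. At E13.5 it was held by 8 of 18 cap and 7 of 29 mutant cells, and its difference was -1.80 at E18.5 and -1.28 at E13.5 between mutant and cap. The type I receptor gene Bmpr1b was held by 13, 5, 1, 4 and 5 cells and Acvr1 by 15, 28, 7, 8 and 4. The 13 transducers of the signal ranged from common to rare: Smad5 in 54, 49, 24, 15 and 21 cells, Smad4, the shared partner, in 48, 39, 25, 8 and 10, Smad1 in 37, 36, 10, 9 and 5, and Smad9 in 3, 4, 0, 2 and 1. Smad1 was lower in E18.5 mutant than in interstitium cells, at -1.39, and Map3k7, the kinase TAK1 of the Smad-independent branch, at -1.59. Of 6 further targets, Msx1 and Dlx5 were listed at 0 in every cell, and Id4, a relative of the 3 Id genes, was held by 6, 2, 7, 0 and 3 cells.

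Of the 3 E proteins, the partners that Id proteins hold, Tcf4 and Tcf3 were called lower in E18.5 mutant than cap cells and Tcf12 was not. Tcf4 had means of 5.49, 3.77, 2.02, 4.20 and 3.73 log2 units in the 5 groups, a mutant minus cap difference of -3.47 at E18.5. Tcf3 had 2.36, 2.12, 1.31, 3.99 and 2.51, and Tcf12 lay between 3.11 and 3.49 in all 5. At matched gene number Tcf4 stayed at -3.35 between E18.5 mutant and cap, and Tcf3, at -0.41, was no longer called. In the TGF-beta branch, Tgfbr3 (betaglycan) was at 0.49 in E18.5 cap, 1.76 in interstitium and 3.82 in E18.5 mutant cells, Tgfb2 at 1.09, 1.21 and 3.06, and Tgfb3 at 1.65, 2.89 and 3.13. Smad2 (-1.12), Smad3 (-1.19) and Ltbp1 (-1.50), which holds latent TGF-beta in the matrix, were lower in E18.5 mutant than cap cells. Among cells matched at 3000 to 5000 genes, Ltbp1 was at -0.28, Smad3 at -0.98 and Smad2 on the other side of 0, at 0.36. Tgfb3 was at 0.05 there, while Tgfb2 (2.35) and Tgfbr3 (2.92) stayed past 1 unit.

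In all, 7 of the 76 were called higher and 8 lower in E18.5 mutant than cap cells, with 40 past the filter. The counts were 4 higher and 3 lower for interstitium against cap (39 past the filter), 4 and 4 for E18.5 mutant against interstitium (39), and 0 and 8 for mutant against cap at E13.5 (42). They were 4 and 3 between cap ages (40) and 9 and 3 between mutant ages (40). Each is read against the shares of all genes given above for the same comparison. Of the 8 lower calls in E18.5 mutant against cap, Bmper (-1.62), Acvr2b (-2.21) and Tcf4 stayed past 1 unit at matched gene number, and Skil (-0.67), Tcf3, Smad2, Smad3 and Ltbp1 did not. At E13.5 too few cap cells remained to match.

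**Figure D5:**
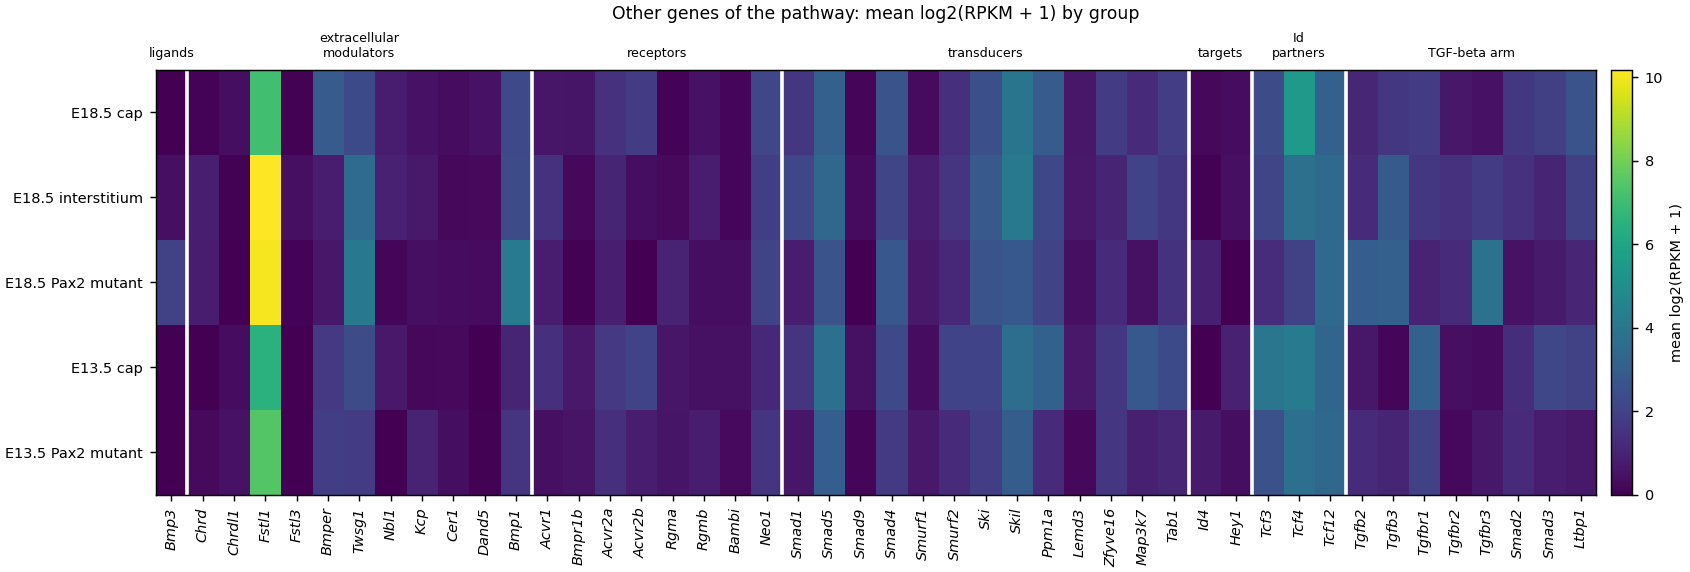
Colour gives mean log2(RPKM + 1) in each group for the 46 of 76 other pathway genes that 10% of the cells of some group held, ordered by list. Fstl1 is the brightest column, and the E18.5 mutant row has the highest Bmp3, Bmp1, Tgfb2 and Tgfbr3 with the lowest Tcf4.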

How the data were processed

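Each sample was 1 cell. The authors deposited 1 table of RPKM for 36186 gene entries in 237 cells; per the submitters' processing notes reads were aligned with TopHat to mm10, and the counting rule is not given in the sources used here. Ratios of low values between cells showed no steps of whole reads (over 99 pairs of cells, the 3 most populated 0.02 log2 bins took a median of 9.95%), so depth is unknown. No pair of cells was identical (highest correlation 0.809).

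Values were averaged as log2(RPKM + 1), which understates differences of low genes. With no embryo labelled, differences carry no p-value and are called at 1 log2 unit, where 10% of cells in 1 of the groups reached 1 RPKM. Groups follow source name, cell type, genotype and age. A cell with conflicting labels was left out. No doublet caller was run. The text names the 10 genes, fixed pathway and marker lists and, per gene held by 20% of cells, the 3 genes of highest r; LOC100503946 lies outside this rule, picked once its values were known. The genes and lists were chosen with earlier results of these data known. Bmp2, Bmp7, Id1 and Smad7 have no promoter entry here. Python 3.11.15, pandas 2.3.3, NumPy 2.4.6 and SciPy 1.17.1 were used, and the scripts were tested on simulated data.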

Additional observations from a re-analysis of the deposited data

How the results depend on the processing

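Alternatives changed the pseudocount, averaging, scaling or cells used; those limited to cells with few G2 and M phase markers were chosen after seeing the data. Of the recomputed differences, 8 reversed a called direction; others lost or gained a call without reversing. With any value above 0 or 5 RPKM as the detection line, 20 shares of cells moved beyond their intervals and 80 did not; Bmp7 in E18.5 mutant cells went from 15.9% to 40.9% and Bmpr1a in E13.5 mutant cells from 34.5% to 62.1% with any value above 0. A pseudocount of 10 left 0 called genes for interstitium minus cap (2 as reported), 1 for E18.5 mutant minus cap (3), 1 for mutant minus interstitium (4), 1 for E13.5 mutant minus cap (5), 1 between cap ages (4) and 3 between mutant ages (5). Median-ratio scaling gave 3 for E13.5 mutant minus cap and 2 between cap ages, and moved the median of all genes from -0.40 to -0.27 for E18.5 mutant minus cap. Restriction to 3000 to 5000 genes gave 1 for mutant minus interstitium, with Id2 reversed to 0.028. With only 2 E13.5 cap cells it gave 2 between cap ages, Bmp4 at 0.37 and Bmpr1a at 1.55, and in E13.5 mutant minus cap Bmpr1a at 1.29 and Id2 at 3.69. Without cells high in LOC100503946, E13.5 mutant minus cap had 2 (Id2 at 0.17) and cap ages 2. Mutant minus interstitium had 2 with pool 2 interstitium cells alone, and Id2 at 0.16 as a ratio of mean RPKM. Cells with few G2 and M phase markers gave 4 for interstitium minus cap (9 and 10 cells) and Id1 at 0.67 for mutant minus interstitium (39 and 9 cells). Shares of all genes called under these settings are not given here, so the counts do not set the 10 apart from other genes. With a pseudocount of 10 the median of all genes for E18.5 mutant minus cap moved from -0.40 to -0.11. The cause of these changes in calls was not tested. Bmp7 in interstitium and E18.5 mutant cells stayed below the cap under every alternative run. No paired analysis was possible because the labels link no individual cells across groups.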

Other observations

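A further E13.5 wild-type cell, whose source name says cap mesenchyme and whose cell type label says interstitium, entered no group. It had 6570 genes at 1 RPKM or more, Six2 at 143 RPKM, Pax2 at 24.7 and Pdgfra listed at 0. Bmp2, Bmp4, Bmp7 and Smad6 were listed at 0, Bmpr1a was at 8.41 RPKM, Bmpr2 at 11.5, Id1 at 101, Id2 at 273, Id3 at 331 and Smad7 at 0.127. Of the cells that stand apart by markers, the E13.5 mutant cell with ureteric genes had Bmp4 at 6.11 RPKM, Id3 at 169 and both Id1 and Id2 listed at 0. The E18.5 mutant cell with immune genes had Bmp4 at 3.24 RPKM, Bmp7 at 2.66, Id2 at 4.47 and Id3 listed at 0.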
